A study of Rattus norvegicus with 9 samples.

Results

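Integrins, cadherins and protocadherins, the main families of cell adhesion receptors, were compared in rats between blood and 2 brain regions, the hippocampus (HC) and the prefrontal cortex (PFC). A probe set was taken as a member when the annotation of the array gave it exactly 1 gene symbol that begins with Itga, Itgb, Cdh or Pcdh. This gave 57 genes with 1 probe set each, out of 14506 genes that had such probe sets of their own (15310 of 29214 probe sets with values). Of the 57 genes, 24 carried an integrin name, 17 a cadherin name and 16 a protocadherin name. Among the 24, Itgb1bp1, Itgb1bp2, Itgb3bp and Itgbl1 are not integrin subunits, so 20 subunits remain. All members were chosen by name and none by its values.

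The 9 Rat Gene 1.0 ST arrays held RNA of untreated male Wistar rats with the numbers 2, 5 and 7, and each rat gave 1 array of each of the 3 tissues. The rats came at 6 weeks of age and were housed for 1 week. The sources disagree on how many rats there were, with 6 in the sample labels, 4 and 1 omitted sample in the methods, and 3 in the design text, and the count of 3 used here is that of the arrays. HC and PFC had been punched from frozen sections and blood collected whole, so every tissue holds a mixture of cell types, and fewer cells of a type cannot be told apart from less RNA per cell.

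Integrins are pairs of an alpha and a beta subunit that bind matrix proteins or counter-receptors on other cells and connect to actin through talin and kindlin. Leukocytes and platelets use them to stick to vessel walls and to each other. Classical cadherins bind the same cadherin on the neighbouring cell and connect to actin through catenins, and several of them are expressed by defined groups of neurons. Protocadherins are a related family, of which the clustered genes give single neurons different surface identities.

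Values are RMA values on the log2 scale, so that a difference of 1 is a doubling. Presence in a tissue means that its 3 arrays averaged more than 6.2. Values for brain average HC and PFC, a difference is given ± SE, and higher or lower is written of a gene in brain when its limma adjusted p was under 0.05. Differences were tested for the 38 members present in at least 1 tissue, within a fit of all 16884 such probe sets. The other 19 members were present in none.

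Cadherins and protocadherins were more often present in the brain regions than in blood. Integrin genes were not. Of 24 integrin genes, 11 were present in blood, 10 in HC and 9 in PFC. Of 17 cadherins, 2 were present in blood, 7 in HC and 8 in PFC. Protocadherins were alike, with 3 of 16 in blood, 11 in HC and 13 in PFC. Of all 29214 probe sets with values, 13697 were present in blood, 13789 in HC and 13766 in PFC, and 10598 in all 3 tissues. Integrins made up most of the genes present in blood only, namely Itga5, Itga11, Itgal, Itgam, Itgb7 and Itgb3, beside the cadherin Cdh15. Conversely, 20 members were present in HC and PFC but not in blood. Both groups rest on the cut-off of 6.2. The 7 blood-only genes all lay above the lower background limits (defined below) in all 3 tissues. By those limits, Itgad and Itga2 alone were blood only, and 15 members passed in HC and PFC but not in blood. Co-expressed in all 3 tissues were 7 genes, the integrin subunits Itgb1, Itgb2 and Itga6, the adaptor Itgb1bp1, the cadherin Cdh22 and the protocadherins Pcdh8 and Pcdh17.

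**Figure D1:**
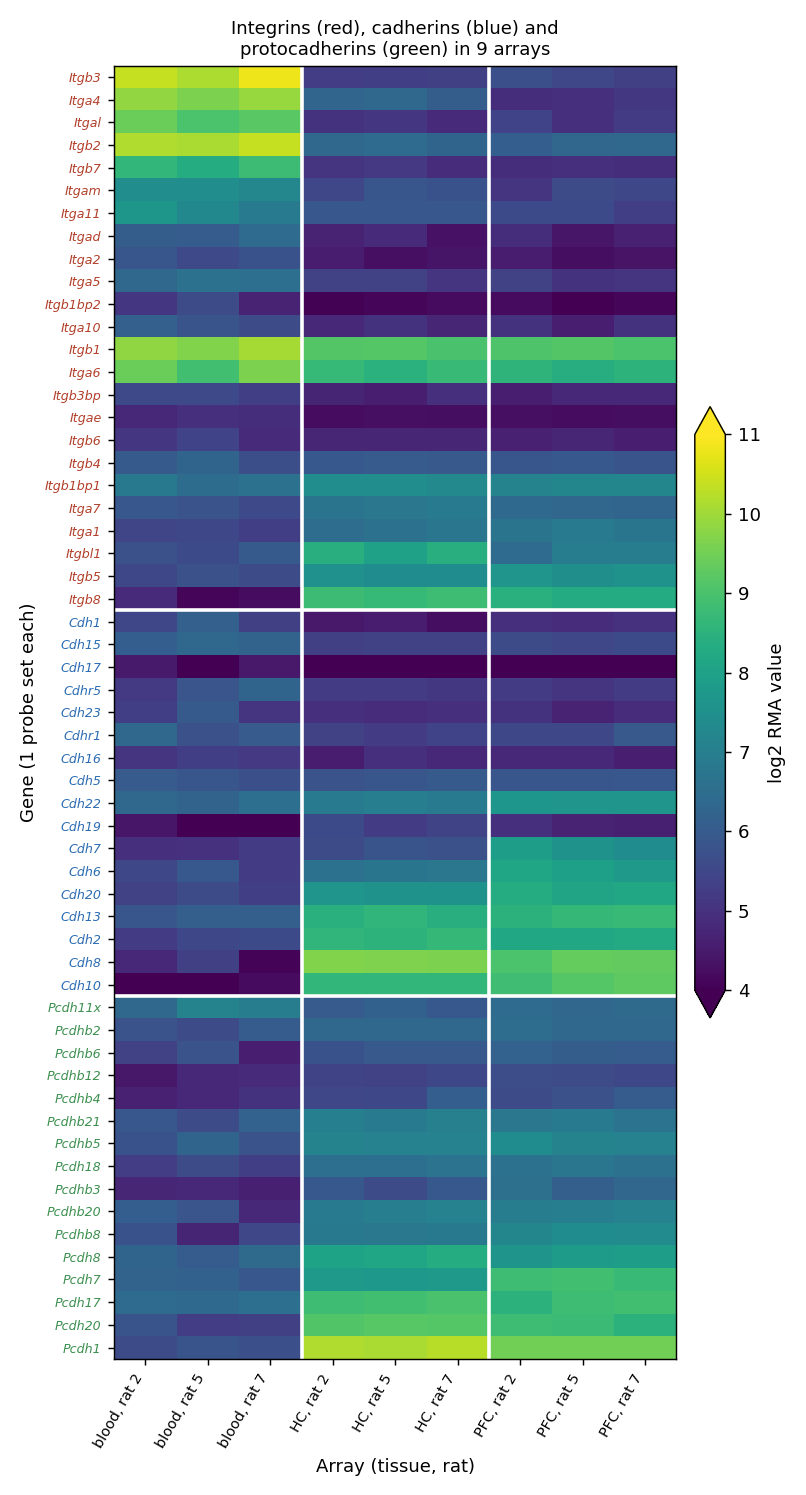
RMA values (log2, colour) of the 57 members (rows, 1 probe set each) on the 9 arrays (columns, tissue and rat), with integrin names in red, cadherins in blue and protocadherins in green, ordered within a family by the difference between brain and blood. Values under 4 or over 11 take the end colours. The upper integrin rows are bright in blood, whereas the lower rows of all 3 families are bright in HC and PFC.

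The sequences below show what lies before the start of 3 leukocyte integrin genes that were lower in brain. They are the 250 bases before the RefSeq start on assembly GRCr8, read 5′ to 3′ along the gene, for Itgam (chr1:192089342-192089591, + strand), Itga4 (chr3:84569765-84570014, + strand) and Itgb7 (chr7:135239072-135239321, - strand). Capitals mark GAGGAA, the core bound by PU.1, and TGTGGT, the core bound by Runx factors, on either strand, so that the opposite strand reads TTCCTC and ACCACA. The marked letters do not overlap.
Itgam: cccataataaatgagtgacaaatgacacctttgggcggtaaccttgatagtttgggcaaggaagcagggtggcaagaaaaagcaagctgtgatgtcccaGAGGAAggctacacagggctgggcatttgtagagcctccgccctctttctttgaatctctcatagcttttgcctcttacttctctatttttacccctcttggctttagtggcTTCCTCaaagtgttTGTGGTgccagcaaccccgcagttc
Itga4: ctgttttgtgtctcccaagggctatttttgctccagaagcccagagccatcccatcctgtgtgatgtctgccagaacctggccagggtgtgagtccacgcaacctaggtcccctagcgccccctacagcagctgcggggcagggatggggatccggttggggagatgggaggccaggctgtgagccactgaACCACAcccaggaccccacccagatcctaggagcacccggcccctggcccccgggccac
Itgb7: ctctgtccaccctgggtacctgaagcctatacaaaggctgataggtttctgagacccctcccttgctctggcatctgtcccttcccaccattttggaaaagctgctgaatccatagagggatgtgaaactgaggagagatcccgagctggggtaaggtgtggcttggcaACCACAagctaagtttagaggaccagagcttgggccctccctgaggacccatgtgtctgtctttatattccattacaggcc
Of the 57 members, 44 had such a promoter in the RefSeq table. Without an entry were Itgal, Itgad, Itgb4, Cdh2, Cdh16, Cdh1, Cdh13, Cdh5, Itgb2, Itga6, Cdh17, Itga7 and Itgb3. TGTGGT was found before all 4 leukocyte integrins with an entry (Itgam, Itga4, Itgb7 and Itgae), before 1 of the 23 matched members that were higher in brain, and in 14.5% of all 33469 promoter windows of the same length. Itgae was present in no tissue, and of the 6 matched integrins that were lower in brain, 3 held TGTGGT and Itga5, Itga11 and Itgb1 did not. GAGGAA was found in 2 of the 4, in 4 of the 6, in 6 of the 23 and in 23.3% of all windows. By family, TGTGGT stood before 4 of 17 matched integrin genes, 3 of 11 cadherins (Cdh15, Cdhr1 and Cdhr5) and 1 of 16 protocadherins. It was thus not particular to integrins, and Cdh15 was lower in brain as well. A match describes these letters only, and binding was not measured.

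The widest integrin difference was that of Itgb3 (probe set 10940577), the beta subunit of the platelet fibrinogen receptor. In blood, its values in rats 2, 5 and 7 were 10.38, 10.13 and 10.81. In HC they were 5.27, 5.29 and 5.31, and in PFC 5.70, 5.48 and 5.32. Every blood array was above every brain array, and the gene was 33.1-fold lower in brain (-5.05 ± 0.142, adjusted p = 4.92e-10). Itga2, a collagen receptor subunit that platelets also carry, was present in no tissue, with means of 5.72 in blood, 4.41 in HC and 4.39 in PFC.

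Leukocyte integrins were lower in brain. Without the filter on presence this held for all 7, against 49.6% of all probe sets. Itgae was among the 7, although it lay under the background limit (defined below) in every tissue. The 5 that were present in a tissue, all of them in blood, differed by -4.19 to -1.81, and 37.4% of all tested probe sets were lower. Itga4 (probe set 10837138), which pairs with Itgb1 or Itgb7 in the homing receptors of lymphocytes, read 9.86, 9.62 and 9.92 in blood, 6.29, 6.33 and 6.07 in HC, and 4.91, 4.94 and 5.14 in PFC. The difference between brain and blood was -4.19 ± 0.100 (adjusted p = 1.74e-10), or 18.2-fold. The 3 tissues did not overlap, and HC lay between blood and PFC.

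Itgal and Itgb2 together form the lymphocyte receptor LFA-1. In blood, Itgal was at 9.42, 9.01 and 9.20, while its 6 brain values ran from 4.85 to 5.40 (-4.11 ± 0.124, adjusted p = 7.8e-10). Itgb2, the shared beta subunit of the leukocyte family, was at 10.16, 10.11 and 10.39 in blood, at 6.36, 6.45 and 6.26 in HC and at 6.08, 6.32 and 6.37 in PFC (-3.91 ± 0.098, adjusted p = 2.36e-10). It was the only leukocyte integrin whose mean passed the cut-off in all 3 tissues, and with means of 6.36 in HC and 6.26 in PFC it did so narrowly.

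Itgb7, which pairs with Itga4 or Itgae on lymphocytes of the gut, was at 8.65, 8.33 and 8.80 in blood and between 4.88 and 5.17 in brain (-3.62 ± 0.110, adjusted p = 8.04e-10). Itgam pairs with Itgb2 on neutrophils, monocytes and microglia. Its values were 7.42, 7.43 and 7.24 in blood, 5.50, 5.88 and 5.75 in HC and 5.07, 5.62 and 5.51 in PFC (-1.81 ± 0.134, adjusted p = 5.28e-07). It was thus 3.51-fold lower in brain and under the cut-off for presence there, though above the background limits of HC and PFC. Of 3 microglial markers, P2ry12 was lower in brain (8.24 in blood, 7.30 in HC and 7.21 in PFC) and Tmem119 was higher by 0.30. Cx3cr1 was not called, with means of 7.69, 7.87 and 7.88. P2ry12 and Cx3cr1 were thus present in blood too, and neither marks microglia alone in these tissues. The remaining leukocyte subunits Itgad and Itgae were present in no tissue. Their means were 6.18 and 4.90 in blood and between 4.25 and 4.66 in the brain regions.

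Subunits with partners in many tissues differed less. Itgb1, which pairs with most alpha subunits for matrix proteins, was at 9.83, 9.68 and 10.04 in blood and between 8.98 and 9.16 on the 6 brain arrays (-0.78 ± 0.0923, adjusted p = 2.05e-05). Its laminin-binding partner Itga6 was at 9.42, 8.87 and 9.61 in blood and between 8.37 and 8.73 in brain (-0.74 ± 0.149, adjusted p = 9.15e-04). Neither gene overlapped between blood and brain, and both were present in all 3 tissues. Itga5, of the fibronectin receptor, and the collagen receptor subunit Itga11 were also lower in brain, by -1.30 and -1.60, and the 3 HC values of Itga11 were identical.

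Other integrin genes were higher in brain. The widest of these differences was that of Itgb8 (probe set 10892835), a partner of the alpha v subunit that binds latent TGF-beta and is carried by astrocytes. It was at 4.86, 4.12 and 4.22 in blood, at 8.79, 8.70 and 8.82 in HC and at 8.44, 8.30 and 8.30 in PFC (4.16 ± 0.147, adjusted p = 2.19e-09). The blood values lay under 5.53, the background limit of blood, which is the 95th percentile of 1298 probe sets for chemosensory receptors (olfactory, vomeronasal and taste). Against that limit the difference was 3.03. Itgb5, another partner of alpha v that binds vitronectin, was at 5.51, 5.74 and 5.62 in blood and between 7.39 and 7.65 in brain (1.88 ± 0.0816, adjusted p = 9.48e-09).

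The remaining integrin genes that were higher in brain were Itgbl1, Itga1, Itga7 and Itgb1bp1. Itgbl1 encodes a secreted protein with repeats like those of beta subunits. It was at 5.75, 5.57 and 5.98 in blood, 8.41, 8.02 and 8.39 in HC and 6.44, 6.98 and 6.98 in PFC (1.77 ± 0.153, adjusted p = 1.81e-06). The collagen receptor subunit Itga1 differed by 1.27 ± 0.0863 (adjusted p = 2.74e-07, or 1.16 against the background limit) and the laminin receptor subunit Itga7 by 0.82 ± 0.0943 (adjusted p = 1.64e-05). With each array shifted to an equal mean of 13 housekeeping genes, the differences of Itga1, Itga7 and Itgb1bp1 became -0.022, -0.47 and -0.65, while the median of all tested probe sets moved from 0.22 to -1.07. Of the beta subunits, Itgb4 and Itgb6 were present in no tissue, with tissue means between 4.67 and 5.97.

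Counted over the family, 6 integrin genes were higher and 10 lower in brain of the 16 that were tested. Among all tested probe sets 48.8% were higher and 37.4% lower. The median difference of the 16 genes was -1.04, against 0.22 for all tested probe sets. Without the filter on presence, 6 of all 24 were higher and 17 lower with a median of -0.89, against 30.0% higher, 49.6% lower and a median of -0.31 for all 29214 probe sets. Over the 20 subunits alone, 4 were higher and 15 lower without the filter. A member that passes the filter through the tissue where it is high must differ to some extent, so the counts without it are given beside each family. Those counts have a limit too, since the background limit was higher in blood (5.53) than in HC (4.88) and PFC (4.85). Of the 17 lower genes, Itgae, Itgb6, Itgb1bp2 and Itgb3bp lay under it in every tissue. For them, lower expression in brain cannot be told apart from the higher limit in blood.

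**Figure D2:**
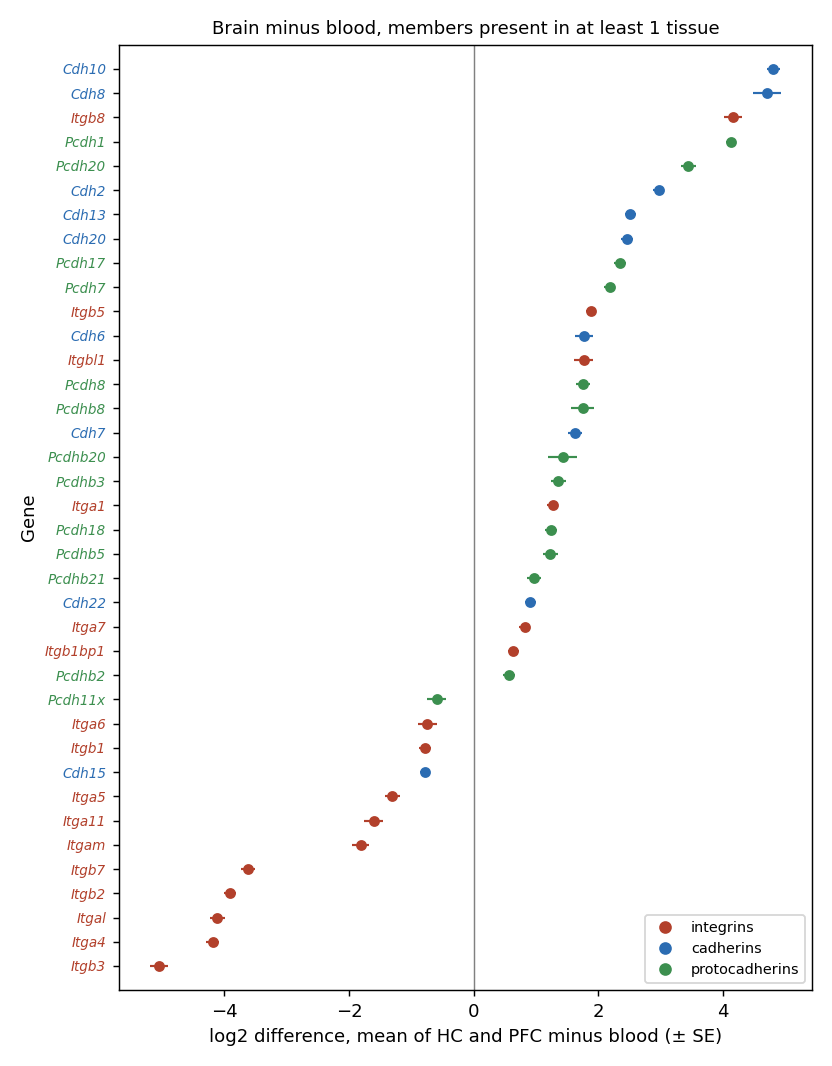
Difference between the mean of HC and PFC and blood (log2, horizontal axis, ± SE) for the 38 members present in at least 1 tissue, ordered by size. All 38 had an adjusted p under 0.05. Cadherins and protocadherins lie right of 0 apart from Cdh15 and Pcdh11x, while 10 of 16 integrin genes lie left of it, with Itgb3 farthest at -5.05.

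Cadherins mostly differed in the opposite direction. Of 9 tested, 8 were higher in brain and only Cdh15 was lower, with a median of 2.47. Among all tested probe sets 48.8% were higher and 37.4% lower. Over all 17 cadherins without the filter, 9 were higher and 7 lower, with a median of 0.91. The cadherins present in no tissue thus lay mostly below their blood values. Of all probe sets without the filter, 30.0% were higher and 49.6% lower. Of the 7 lower cadherins, Cdh16 and Cdh17 lay under the background limit in every tissue. Cdh23 lay under it in blood, with means of 5.46 there, 4.92 in HC and 4.86 in PFC. For these genes, lower expression in brain cannot be told apart from the higher limit in blood. The differences of Cdhr1 and Cdhr5, present in no tissue either, were small at -0.54 and -0.58. Above the median of all probe sets without the filter lay 10 of 17 cadherins, 7 of 24 integrin genes and 15 of 16 protocadherins. Shifting whole arrays by a constant cannot move this count, but a scaling of their spread could. The SD within an array was 1.85 to 1.90 in blood, 2.18 to 2.21 in HC and 2.19 to 2.21 in PFC. A scaling of the spread was not tried. The difference between the families was itself not tested.

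Type II cadherins, which sort neurons and their connections, made up 6 of the 8. Cdh10 (probe set 10813839) and Cdh8 had the widest differences of the family. Cdh10 was at 4.02, 3.94 and 4.20 in blood, identical at 8.65 on the 3 HC arrays, and 8.84, 9.15 and 9.25 in PFC (4.81 ± 0.103, adjusted p = 9.12e-11). Cdh8 was at 4.82, 5.32 and 4.06 in blood, at 9.69, 9.64 and 9.63 in HC and at 9.01, 9.36 and 9.33 in PFC (4.71 ± 0.224, adjusted p = 1.88e-08). The blood values of both genes lay under the background limit, and against it the differences were 3.33 for Cdh10 and 3.91 for Cdh8, which turns their order. Cdh20 was at 5.36, 5.64 and 5.30 in blood, 7.65, 7.57 and 7.56 in HC and 8.34, 8.09 and 8.18 in PFC (2.47 ± 0.0952, adjusted p = 4.11e-09). Groups did not overlap for any of these. Cdh6, Cdh7 and Cdh22 were higher in brain by 1.78, 1.63 and 0.91, of which that of Cdh22 became -0.38 on the housekeeping scale.

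Of the type I cadherins, Cdh2 (N-cadherin) is the classical cadherin of neurons and of synapses. It was at 5.23, 5.51 and 5.58 in blood, 8.60, 8.53 and 8.66 in HC and 8.21, 8.18 and 8.27 in PFC (2.97 ± 0.0889, adjusted p = 7.28e-10). Cdh15, the cadherin of muscle precursors, was at 6.09, 6.37 and 6.24 in blood and between 5.33 and 5.59 in brain (-0.78 ± 0.0793, adjusted p = 6.25e-06), so that its blood mean of 6.23 lay just above the cut-off. Cdh1 (E-cadherin), known from epithelia, was present in no tissue, with means of 5.64 in blood, 4.43 in HC and 4.95 in PFC. Blood means of Cdh2, Cdh7 and Cdh20 lay under the background limit, and against it their differences were 2.86, 1.14 and 2.33. Cdh13, a cadherin anchored in the membrane by a lipid and without a cytoplasmic tail, was at 5.88, 6.11 and 6.11 in blood and between 8.39 and 8.72 in brain (2.52 ± 0.0904, adjusted p = 2.46e-09). The endothelial cadherin Cdh5 was present in no tissue either. Its means were 5.87 in blood, 5.89 in HC and 5.88 in PFC. Endothelial markers were split, with Slco1c1 and Cldn5 higher in brain by 4.17 and 0.83 and Pecam1 lower by -1.28. All of them were present in both regions. Cldn5 and Pecam1 were also present in blood, with means of 7.06 and 8.13, so neither marks brain endothelium alone here.

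Protocadherins were higher in brain for 12 of the 13 tested, with a median of 1.43, and without the filter for 15 of all 16, with a median of 1.30. Of all probe sets, 48.8% were higher with the filter and 30.0% without it. Blood means of 7 of the 16 protocadherins lay under the background limit. On the housekeeping scale 6 protocadherins were higher and 3 lower. Pcdh1 (probe set 10804117) led this family. It was at 5.63, 5.81 and 5.70 in blood, at 10.17, 10.10 and 10.25 in HC and at 9.51 on each PFC array (4.13 ± 0.0719, adjusted p = 3.06e-11), a 17.5-fold difference. Pcdh20 was at 5.81, 5.28 and 5.33 in blood, 9.10, 9.17 and 9.16 in HC and 8.83, 8.77 and 8.50 in PFC (3.45 ± 0.127, adjusted p = 2.93e-09). Against the background limit the difference of Pcdh20 was 3.30. Both are non-clustered protocadherins, which have single genes of their own.

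Pcdh17 and Pcdh8 belong to the same group, and Pcdh8 is induced by activity at synapses. Pcdh17 was at 6.44, 6.39 and 6.56 in blood and between 8.51 and 8.98 in brain (2.35 ± 0.0966, adjusted p = 6.46e-09). Pcdh8 was at 6.25, 6.03 and 6.41 in blood and between 7.61 and 8.34 in brain (1.76 ± 0.113, adjusted p = 1.79e-07). With blood means of 6.47 and 6.23 they passed the cut-off there, and Pcdh8 only just did so. Pcdh7 was at 6.22, 6.19 and 5.89 in blood and differed by 2.19 ± 0.0878 (adjusted p = 5.46e-09).

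The exception was Pcdh11x, a gene of the X chromosome. It was at 6.37, 7.12 and 6.93 in blood, 6.01, 6.17 and 5.92 in HC and 6.46, 6.30 and 6.42 in PFC (-0.59 ± 0.150, adjusted p = 0.00395). The blood array of rat 2 lay within the PFC values, so this was the only tested member of 38 whose blood and brain values overlapped. Over all tested probe sets 79.6% had no overlap and 86.2% were called in either direction. Without rat 7 its adjusted p was 0.0702.

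**Figure D3:**
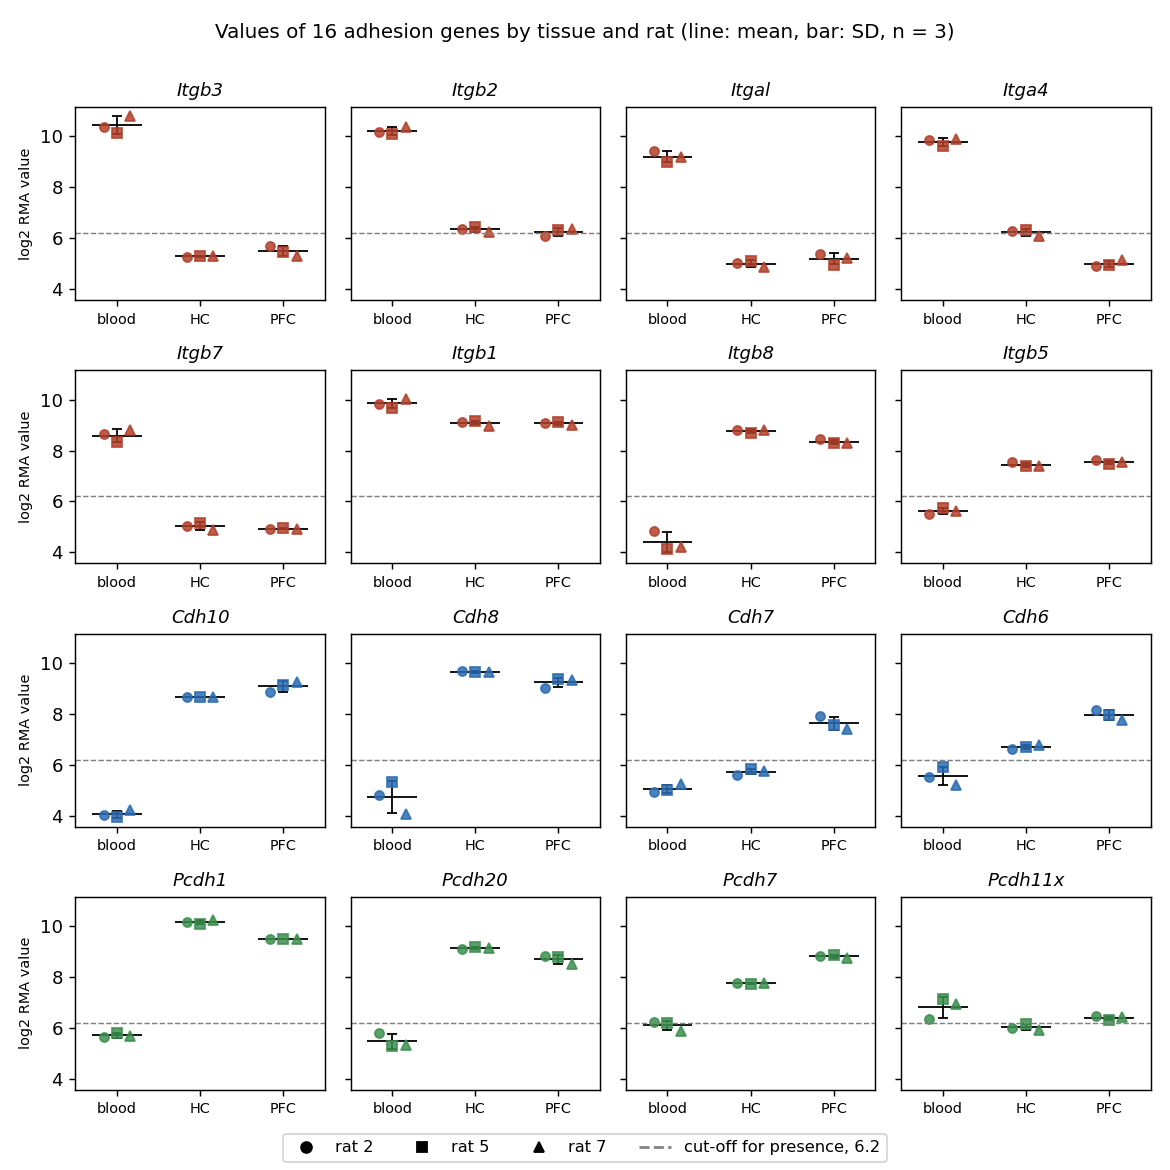
RMA values (log2, vertical axis) of 16 members in blood, HC and PFC, with 1 point per array, the symbol giving the rat, the line the mean and the bar the SD of 3 arrays. The dashed line is the cut-off for presence at 6.2. The upper row holds integrins that were high in blood, Itga4 shows an intermediate HC level, and Cdh7, Cdh6 and Pcdh7 are higher in PFC than in HC.

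The clustered protocadherins were represented by 9 genes of the beta cluster, the only clustered genes with a probe set of their own. In GRCr8 they lie next to each other or with up to 7 protein-coding genes between them. Their promoters share 10 letters, GGTGGCGCTG, which is the longest run found in all 9 windows. The motif was taken from these sequences after they were read, so its presence in them is no finding, and its counts elsewhere are description only. It was found in none of the 35 other matched members and in 63 (0.188%) of all 33469 windows of the same length. Of 35 windows of genes named Pcdha, Pcdhb or Pcdhg, 14 held it. Both counts include the 9 windows it was taken from. Among the 33434 windows of genes with other names, 49 held it. In the 9 genes its first letter lies between 52 and 229 bases before the RefSeq start. Stretches of 60 bases around it (GRCr8, + strand, motif in capitals) are Pcdhb2 at chr18:29279908-29279967, Pcdhb3 at chr18:29285589-29285648, Pcdhb5 at chr18:29302389-29302448, Pcdhb8 at chr18:29339243-29339302 and Pcdhb20 at chr18:29485795-29485854.
Pcdhb2: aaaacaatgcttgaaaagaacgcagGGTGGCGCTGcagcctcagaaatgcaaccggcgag
Pcdhb3: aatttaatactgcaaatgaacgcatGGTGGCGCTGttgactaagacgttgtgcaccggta
Pcdhb5: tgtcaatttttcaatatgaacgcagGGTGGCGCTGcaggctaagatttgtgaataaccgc
Pcdhb8: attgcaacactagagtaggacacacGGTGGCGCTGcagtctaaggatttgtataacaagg
Pcdhb20: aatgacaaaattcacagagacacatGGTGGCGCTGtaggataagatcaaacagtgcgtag
These are 5 of the 6 clustered genes that were present in a tissue.

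All 6 of them were higher in brain, by 0.57 (Pcdhb2) to 1.75 (Pcdhb8), although on the housekeeping scale only Pcdhb8 passed the test as higher, and Pcdhb2 and Pcdhb21 were lower by -0.73 and -0.32. The differences of the 7 non-clustered genes ran from -0.59 to 4.13. The other members of the cluster, Pcdhb4, Pcdhb6 and Pcdhb12, were present in no tissue, and their unfiltered differences were 0.94, 0.74 and 0.81. Their blood means of 4.81, 5.26 and 4.70 lay under the background limit of blood (5.53), and the brain mean of Pcdhb12, at 5.51, did not reach it. The blood means of Pcdhb3 and Pcdhb8 lay under the background limit, and against it their differences were 0.54 and 1.46. The blood values of the cluster spread widely, as for Pcdhb20 with 6.09, 5.85 and 4.79 against 6.87 to 7.11 on the brain arrays, so that the SE of its difference of 1.43 was 0.237. Probe sets of these genes can share sequence with their neighbours, and the values of single beta genes are therefore uncertain.

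Within the brain, integrin genes that differed were higher in HC and cadherins that differed were higher in PFC. Of 16 integrin genes, 3 were higher in HC than in PFC and none was lower. Of these 3, Itgbl1 is not an integrin subunit, so 2 of 14 tested subunits were higher (Itga4 and Itga7). Without the filter, 1 of 20 subunits was higher (Itga4), against 616 of all 29214 probe sets. Of 9 cadherins none was higher and 4 were lower, and of 13 protocadherins 1 was higher and 2 were lower. Among all tested probe sets 4.51% were higher and 4.66% lower in HC, together 9.16%. The medians were 0.14 for integrin genes, -0.43 for cadherins and -0.05 for protocadherins, against -0.00319 for all tested probe sets. With the 6 brain arrays alone, a fit in which 12.7% of all probe sets were higher and 13.1% lower, 6 integrin genes and the cadherins Cdh2 and Cdh8 were higher in HC, and 6 cadherins were lower, among them Cdh10 (adjusted p = 0.0229). At an unadjusted p under 0.05 in limma, 1 cadherin was higher and 5 were lower, and 5 integrin genes were higher and 0 lower. Of protocadherins, 3 were higher and 3 lower. The share of all probe sets at this unadjusted threshold was not counted, so these counts have no reference. The difference between the families was not tested.

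Cdh7 (probe set 10763401) had the widest difference between the brain regions. It was at 5.62, 5.81 and 5.74 in HC and at 7.90, 7.56 and 7.41 in PFC, 3.73-fold higher in PFC (-1.90 ± 0.136 for HC minus PFC, adjusted p = 2.5e-05). It was present in PFC only, since blood was at 4.93, 4.99 and 5.23. Cdh6 was at 6.62, 6.71 and 6.78 in HC and at 8.15, 7.95 and 7.76 in PFC (-1.25 ± 0.171, adjusted p = 0.00126). Without rat 2 the adjusted p of Cdh6 was 0.0716 at a difference of -1.11.

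The type II cadherins Cdh22 and Cdh20 followed. Cdh22 was at 6.89, 7.01 and 6.85 in HC and at 7.67, 7.64 and 7.65 in PFC (-0.74 ± 0.0998, adjusted p = 0.00117, and 0.0583 without rat 2). Cdh20 differed by -0.61 ± 0.110 (adjusted p = 0.00649), and its adjusted p rose to 0.103 without rat 2, 0.106 without rat 7 and 0.0704 on the housekeeping scale. All 4 were higher in PFC in each of the 3 rats, with no overlap, which was so for 42.0% of all tested probe sets. Cdh8 and Cdh10, the type II cadherins with the widest differences from blood, were not called, at 0.42 ± 0.259 (adjusted p = 0.484) and -0.43 ± 0.118 (adjusted p = 0.0519, and 0.0188 without the PFC array of rat 2). Cdh2 missed the threshold at 0.38 ± 0.103 (adjusted p = 0.0502), with all HC values above all PFC values, and passed it when any of the blood arrays was left out (adjusted p = 0.0108 to 0.0289).

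Among protocadherins, Pcdh7 (probe set 10776978) was higher in PFC, with 7.77, 7.74 and 7.77 in HC and 8.82, 8.87 and 8.75 in PFC (-1.05 ± 0.101, adjusted p = 1.52e-04). Pcdh1 was higher in HC by 0.66 ± 0.083 (adjusted p = 7.34e-04). Pcdhb3 was at 5.91, 5.61 and 5.93 in HC and at 6.58, 6.11 and 6.32 in PFC (-0.52 ± 0.135, adjusted p = 0.041). Its call was lost under most alternatives, including leaving out any of the rats, when the adjusted p lay between 0.069 and 0.255. Pcdh8, Pcdh17 and Pcdh20 were not called, with differences of 0.37, 0.16 and 0.44 (adjusted p = 0.134, 0.571 and 0.107).

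**Figure D4:**
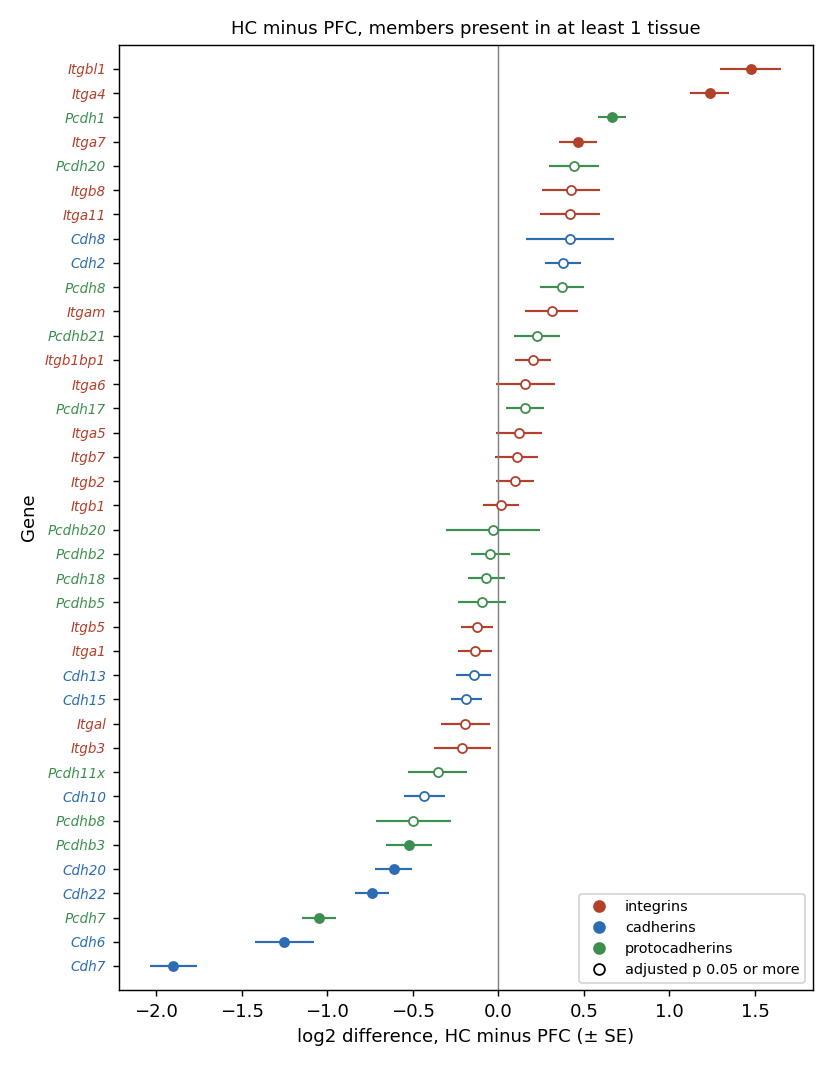
Difference between HC and PFC (log2, horizontal axis, ± SE) for the 38 members present in at least 1 tissue, with filled points for an adjusted p under 0.05. The 4 filled cadherins lie left of 0 (higher in PFC), with Cdh7 at -1.90, and the 3 filled integrin genes lie right of it (higher in HC), with Itgbl1 at 1.47.

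Of the integrin genes, Itgbl1 was 2.78-fold higher in HC (1.47 ± 0.177, adjusted p = 5.79e-04), and its HC and PFC values did not overlap. Itga4 was 2.35-fold higher in HC (1.23 ± 0.115, adjusted p = 1.22e-04), and of its means in the brain only that of HC, at 6.23, passed the cut-off. Of 3 T cell markers, 1 moved with it: Cd3e was at 7.08, 7.08 and 7.27 in HC and at 5.09, 4.82 and 5.23 in PFC, whereas Lck stayed between 5.51 and 5.70 and Cd3g between 2.80 and 2.97 in both regions, the latter under the background limit. The mean of the 3 markers ran from 5.13 to 5.27 in HC, from 4.46 to 4.62 in PFC and from 9.72 to 10.52 in blood. Its part in the Itga4 result was not tested. Itga7 was higher in HC by 0.46 ± 0.109 (adjusted p = 0.0258), and with the rat as a block the adjusted p was 0.0573. Leaving out any HC or PFC array raised it to between 0.0571 and 0.120. Leukocyte and platelet integrins other than Itga4 were not called between HC and PFC, nor was any beta subunit, and the widest of the tested beta subunits was Itgb8 at 0.43 ± 0.169 (adjusted p = 0.198, and 0.00876 without the blood array of rat 2). At an unadjusted p under 0.05, Itgb8 alone of the beta subunits would have passed.

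Genes for proteins that activate integrins or connect them to actin were split between blood and brain. Of 18 genes for integrin adaptors and activators on the array, 17 were tested. In brain 5 were higher and 11 lower, at a median difference of -0.74, against 48.8% higher, 37.4% lower and a median of 0.22 for all tested probe sets. The lower ones were led by Fermt3 (kindlin of blood cells) at -3.53, Apbb1ip at -2.81 and Parvb at -2.21, and included the talin gene Tln1 at -1.98. The higher ones were Ptk2 (focal adhesion kinase) at 3.01, Fermt2 (a kindlin of other tissues) at 2.53, Parva at 1.69, Src at 1.05 and Ptk2b. Members of the kindlin and parvin families thus differed in opposite directions, although Parvb was present in all 3 tissues, with means of 10.13 in blood, 7.87 in HC and 7.98 in PFC.

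Genes for integrin ligands had no common direction. Of 11 tested, 3 were higher and 5 lower (48.8% and 37.4% of all tested probe sets), with a median of -0.01 (0.22 over all). Higher were Vcam1, the counter-receptor of Itga4 integrins, at 2.76, vitronectin (Vtn) at 1.82 and the laminin chain Lamc1 at 1.46. Lower were Icam1 and Icam2, the counter-receptors of Itgal with Itgb2, at -1.11 and -2.89, beside Fn1, Spp1 and Col1a1. The blood means of Vcam1, Parva and Ctnna2 lay under the background limit. Catenins, the partners of classical cadherins, were higher in brain for 6 of 8 tested and lower for none in limma, also at an unadjusted p under 0.05, with a median of 1.38, against 48.8% of all tested probe sets and a median of 1.26 for the 13 housekeeping genes. On the housekeeping scale 3 catenins were higher and 3 lower, with a median of 0.083. The neuronal catenins Ctnnd2 and Ctnna2 differed by 3.74 and 3.46, Ctnnb1 (beta-catenin) by 0.27, and Jup and Arvcf were not called. On the housekeeping scale Ctnnd2 and Ctnna2 were still higher, at 2.44 and 2.17, and Ctnnb1 was lower at -1.02. Of the catenins, only Ctnna2 differed between HC and PFC, and like Cdh7 it was higher in PFC (-0.53, adjusted p = 0.00514).

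**Figure D5:**
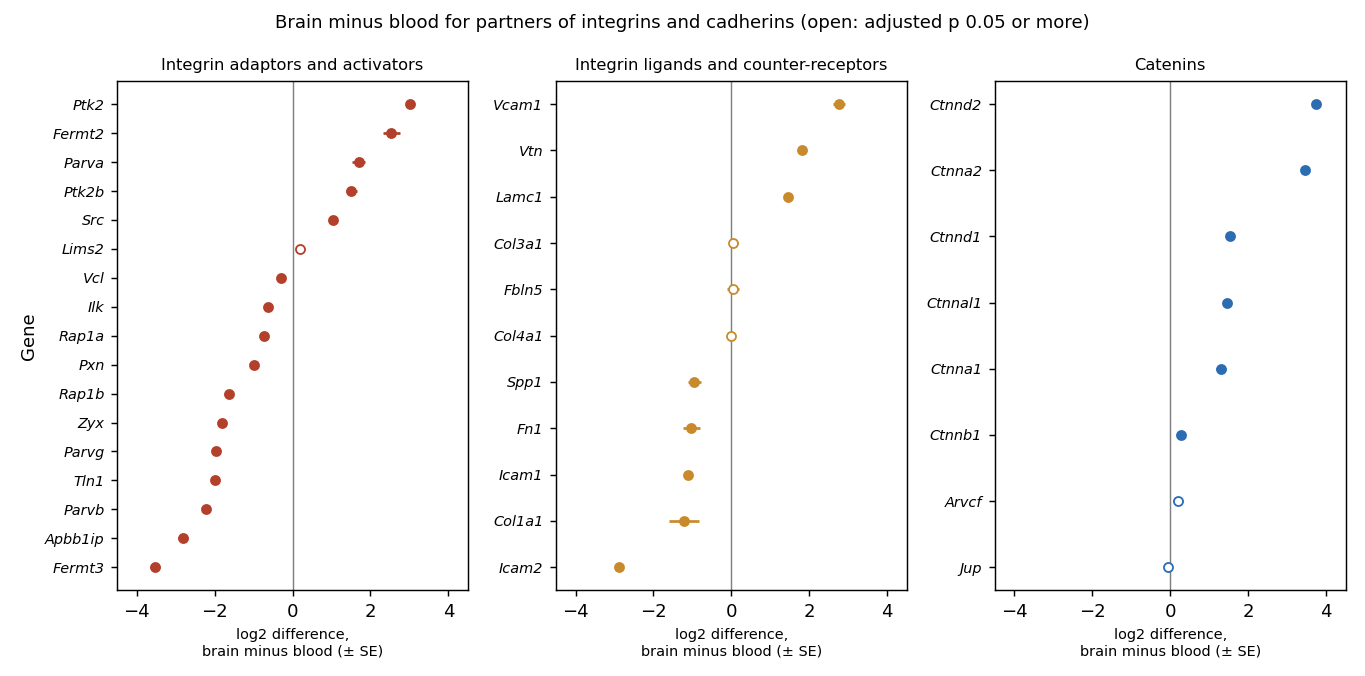
Difference between brain and blood (log2, horizontal axis, ± SE) for genes of integrin adaptors and activators, integrin ligands and counter-receptors, and catenins that were present in at least 1 tissue. Open points have an adjusted p of 0.05 or more. Adaptors run from Fermt3 at -3.53 to Ptk2 at 3.01, and all called catenins lie right of 0.

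Markers of other cells moved with these results. The 3 platelet markers (Pf4, Ppbp and Gp9), 3 neutrophil markers and 2 B cell markers were lower in brain like Itgb3 and the leukocyte integrins, and the mean of the platelet markers was 9.85 to 10.30 in blood and 5.24 to 5.45 in the brain regions. In brain, all 3 neutrophil markers, Ppbp, Ms4a1, Cd3g and Ahsp lay under the background limit. All 3 neuronal markers were higher in brain, with means of 4.63 to 5.17 in blood and 11.94 to 12.10 in brain. Between the regions, both dentate gyrus markers were higher in HC, C1ql2 by 3.69 and Prox1 by 3.09. Higher in HC were also 1 of 3 astrocyte markers (Gfap, by 1.55, with Aldoc and Slc1a2 not called), 1 of 2 oligodendrocyte markers (Mog, by 0.97, with Mbp not called) and 1 of 2 tested choroid plexus markers (Ttr, by 6.07, with Folr1 not called). Col3a1 was higher in PFC. So was 1 of 2 erythroid markers, Alas2 (-0.66 for HC minus PFC, adjusted p = 0.034), with Ahsp not called. The Alas2 means were 13.38 in blood, 5.43 in HC and 6.09 in PFC, both brain means under the cut-off. Their part in the differences of the members was not tested.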

How the data were processed

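The authors quantile normalized the array intensities, summarized them per probe set by RMA and deposited the values, which are read here as log2 because the base is not named and they run from 1.53 to 14.01. The authors' detection p-values were not used here. The study's cut-off of 6.2 on the mean of a tissue was used for presence. The paper also required a detection p-value of at most 0.05, so presence here is wider than in the paper. By the mean alone, 13697 probe sets were present in blood, 13789 in HC and 13766 in PFC. These are more than the paper counts, above all in blood, and genes near the cut-off there may not be present by its definition. limma 3.58.1 in R 4.3.3 fitted 9 arrays with tissue as a factor and no block, over the 16884 probe sets that passed this cut-off in any tissue. Its p-values were adjusted by Benjamini-Hochberg and called under 0.05. Fold differences are 2 to the power of the log2 difference. Between HC and PFC, with 3 arrays each, no permutation test of a single gene can go below 0.1, and single genes were tested by limma only in both comparisons. Arrays of 1 tissue come from different animals.

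Gene symbols were those of the array annotation, matched to rat genes of GRCr8 by gene ID. Promoter sequences are those of RefSeq on GRCr8. The members and gene lists were chosen with earlier results of these data known, and the families are therefore described by counts and medians beside those of all probe sets, with no test of a list. Named were, per family and comparison, the 5 widest called differences in each direction with the same sign in the 3 rats, and, whatever their values, leukocyte and platelet integrins, beta subunits and type I cadherins. Cdh5, Cdh8, Cdh10, Pcdh8, Pcdh17 and Pcdh20 between HC and PFC, and other members named outside this rule, were chosen after their values were seen.

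Samples with 1 number are tissues of 1 rat. Deviations from the tissue means correlated at 0.137 to 0.287 between HC and PFC of the same rat and at -0.261 to 0.0284 between rats, and blood correlated with the PFC of the same rat at -0.0792 to 0.0518. Alternatives were a block for the rat, fixed or random (statmod 1.5.0), no filter or a cut-off of 7.2, scaling of the arrays on 13 housekeeping genes or on the median of shared probe sets, the mean of probe sets per gene, another variance model, the brain arrays alone, a minimum difference of 1, and omission of every array and every rat in turn. Raising values to the background limits (5.53 in blood, 4.88 in HC and 4.85 in PFC) was chosen after seeing the data. Plots used Python 3.11.15 with matplotlib 3.10.9. The fit was tested on simulated data. No genome build of the files was used, and 3 probe sets with several protocadherin symbols were left out of the comparisons.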

Additional observations from a re-analysis of the deposited data

Results flagged for a closer look

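Outside the comparisons, 3 probe sets each carry several protocadherin symbols and so were not members. The probe set 10801137, with symbols of the alpha cluster, was present in HC and PFC, with a PFC mean of 6.88 against 5.41 in blood. The probe set 10801182, for Pcdhb9 and Pcdhb10, had a PFC mean of 6.26 against 5.32 in blood. The probe set 10801216, with symbols of the gamma cluster, had an HC mean of 7.60 against 5.88 in blood. These stand out as signal in data that no comparison used, above the cut-off in at least 1 brain region (PFC alone for 10801182, whose HC mean was 6.17) and under it in blood, and their differences from blood were 1.37, 0.90 and 1.62. The blood means of 10801137 and 10801182 lay under the background limit, and against it the differences were 1.23 and 0.65.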

How the results depend on the processing

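Of 55 results of single genes, 29 kept their direction and their side of the threshold under all alternatives that were run. Scaling on housekeeping genes moved the median of all probe sets between brain and blood from 0.22 to -1.07, and all probe sets were then split into 3084 higher and 12073 lower instead of 8232 and 6319. Scaling on the median of shared probe sets moved the median to -0.12 and gave 6619 and 7867. On the housekeeping scale, 3 integrins and 6 protocadherins were higher and 2 cadherins and 3 protocadherins lower, and 8 genes that were higher in brain changed sign, namely Itga1 (-0.022), Itga7 (-0.47), Itgb1bp1 (-0.65), Cdh22 (-0.38), Pcdh18 (-0.050), Pcdhb2 (-0.73), Pcdhb5 (-0.063) and Pcdhb21 (-0.32). Without the filter, 17 integrins and 7 cadherins were lower, among them genes under the background limit in every tissue. At a cut-off of 7.2, 7 protocadherins were higher, 0 cadherins and 0 protocadherins were lower, and 9, 16 and 19 members were present in blood, HC and PFC. With a minimum difference of 1, 0 cadherins and 0 protocadherins were lower in brain. Leaving out an array or a rat gave 10 to 11 integrins, 0 to 1 cadherins (0 without blood of rat 5 or all of rat 5) and 0 to 1 protocadherins (0 without rat 7) lower in brain.

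Between HC and PFC, the brain arrays alone called 6 integrins, 2 cadherins and 3 protocadherins higher and 6 cadherins and 4 protocadherins lower. Cadherins higher were 1 with the rat as a random block, at a cut-off of 7.2, with the mean of probe sets and with the other variance model, and 2 with values raised to the background limits. A minimum difference of 1 left 2 cadherins lower, 0 protocadherins higher and 1 lower. Protocadherins higher were 2 on the housekeeping scale and with raised values. Protocadherins lower were 1 without the filter, at a cut-off of 7.2, on both scales and with the other variance model. Leaving out an array or a rat gave 2 to 4 integrins, 0 to 1 cadherins and 1 to 2 protocadherins higher, and 1 to 5 cadherins (1 without rat 2) and 1 to 3 protocadherins lower. With the replicate block, the adjusted p of Itga7 between HC and PFC was 0.0573, and the block changed no other call. Without the blood array of rat 5, 1303 probe sets were higher and 1329 lower in HC, against 761 and 786. The causes were not tested. Precision is limited by 3 arrays per tissue.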
